A study of Mus musculus with 8 samples.

Results

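Krueppel-like factors are the subject here: 9 genes, Klf2, Klf3, Klf4, Klf6, Klf7, Klf10, Klf11, Klf12 and Klf13, taken by name from the 49315 gene identifiers of the count files. RNA came from mouse OT-I CD8 T cells, which carry a transgenic T cell receptor for a peptide of ovalbumin and, per the labels, the CD45.1 marker. Naive cells were cultured with interleukin-7 (2.5 ng/ml) plus interleukin-15 (50 ng/ml) and nucleofected with Cas9 and a guide against the bacterial gene LacZ (control, 4 libraries) or against Carm1, an arginine methyltransferase gene (Carm1-edited, 4 libraries, called edited below). Both arms carry the receptor transgene and went through the same editing step. RNA was taken 7 days after editing. The series text adds that T cells of each arm had been co-cultured with ovalbumin-expressing B16F10 melanoma cells, which the sample protocols do not mention. The edited cells are a bulk population and not a clone, the age and number of mice are not given in the labels, and the 4 libraries of an arm are technical replicates per the labels. Each p-value below is therefore relative to technical spread alone.

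Krueppel-like factors are transcription factors that share a run of zinc fingers at the carboxyl end, with which they bind CACCC boxes and GC boxes in promoters. The family is commonly sorted by its partners. KLF2, KLF4, KLF6 and KLF7 act mostly as activators, KLF3, KLF8 and KLF12 recruit the corepressor CtBP, and KLF9, KLF10, KLF11, KLF13 and KLF16 recruit the corepressor SIN3A. In T cells KLF2 is known for quiescence and for the receptors that let naive cells recirculate, KLF4 for restraint of proliferation, and KLF10 for its induction by TGF-beta.

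Control libraries held 38768760 to 41439998 counts and edited libraries 37556330 to 39988442. A count of 3 was worth 0.0724 to 0.0799 CPM (counts per 1000000 counts of the library). Levels below are CPM on library sizes scaled by TMM factors, and comparisons are edgeR quasi-likelihood tests over 14970 genes, with p-values adjusted over all of them. Carm1 itself was at 95.9 ± 1.04 CPM in control libraries and 32.8 ± 0.493 CPM in edited libraries (SD, n = 4 each), and the labels report loss of the protein by western blotting. Of 8 markers of CD8 T cells 7 were higher and 1, Lck (log2 fold change -0.11), was lower after Carm1 editing. Their summed level was 4778 to 4894 CPM in control libraries and 7190 to 7446 CPM in edited libraries. With upper-quartile factors in place of TMM factors, or on library totals alone, 8 were higher and 0 lower. Among all genes tested 44.5% were higher and 43.2% lower. The melanoma genes Tyr, Tyrp1 and Dct had 0 counts in all 8 libraries and Mlana had 1 count in 1 control library, while Pmel was at 3.43 and 12.7 CPM. Of the B cell markers 3 of 4 tested were higher (summed level 274 to 281 and 931 to 957 CPM, mostly Ighm). All 3 NK cell markers were lower (278 to 286 and 169 to 180 CPM, mostly Nkg7, at 277 and 172 CPM). Ncr1 and Klrb1c were low in both groups, at 1.4 and 0.366 CPM and at 2.08 and 1.03 CPM. Of the erythroid markers 4 of 5 tested were lower (4.84 to 5.43 and 0.167 to 0.451 CPM). Of the fibroblast markers 1 was higher and 1 lower, and of the endothelial markers 1 was higher and 2 were lower. The erythroid, fibroblast and endothelial markers called lower were Hba-a1, Hba-a2, Hbb-bs, Hbb-bt, Col1a2, Kdr and Vwf. Each passed the filter on low counts (about 10 counts in at least 4 libraries) only through the control libraries. These markers thus had to be lower to be tested, and their calls are descriptions only.

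The data gave a mixed picture of the family. Klf10 and Klf11 rose strongly after Carm1 editing and Klf7 and Klf13 rose less, Klf4 and Klf6 fell, Klf2 fell slightly, Klf3 did not pass the test, and Klf12 had too few counts to be tested. Of the 8 members tested 7 passed at an adjusted p under 0.05, beside 87.7% of all genes tested. Of the 7, 4 were higher and 3 were lower, beside 44.5% higher and 43.2% lower among all genes, so these counts are near the background. Control and edited libraries were fully separate for all 8 members tested, as they were for 83.4% of all genes tested. Klf10 and Klf11 rose at least 4-fold, as did 8.84% of all genes (20.5% rose at least 2-fold), and Klf4 fell at least 4-fold, as did 5.04% (15.2% fell at least 2-fold). The median log2 fold change of the 8 was 0.12, beside 0.02 for all genes tested. Klf4 passed the filter on low counts (about 10 counts in at least 4 libraries) only through the control libraries, so it had to differ to be tested, and these counts and this median are descriptions only.

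**Figure D1:**
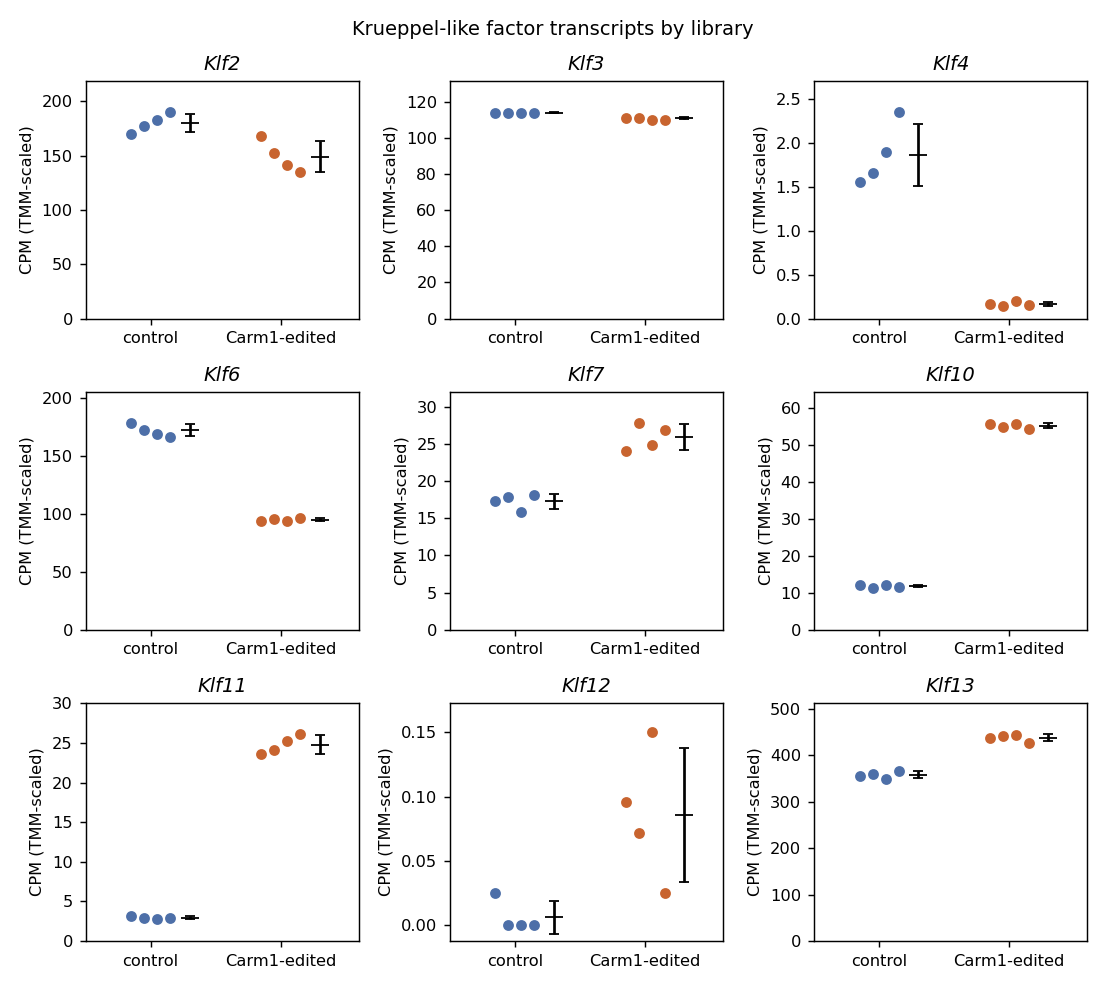
Level of each of the 9 genes in CPM (vertical axis, TMM-scaled) in the 4 control (blue) and 4 Carm1-edited (orange) libraries, in replicate order from left to right, with mean ± SD in black. Klf10 and Klf11 sit far higher and Klf4 and Klf6 lower in the Carm1-edited libraries, whereas the groups of Klf2 and Klf3 lie close to each other.

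Promoter sequences are shown for Klf2, the most abundant member per length, and for Klf4 and Klf11, the members with the largest fall and the largest rise. They are the 250 bases before the RefSeq start (GRCm38.p6), read 5′ to 3′ on the gene's strand, and 8 of the 9 members matched an entry, all but Klf10. Capitals mark matches on either strand to the GC box CCGCCC, to the shorter box CACCC and to the MEF2 consensus.
Klf2: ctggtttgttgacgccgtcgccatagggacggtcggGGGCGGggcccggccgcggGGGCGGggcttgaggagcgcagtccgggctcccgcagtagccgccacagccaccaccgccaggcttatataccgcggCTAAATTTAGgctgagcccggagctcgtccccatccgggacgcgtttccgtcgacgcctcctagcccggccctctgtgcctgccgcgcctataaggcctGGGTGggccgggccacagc
Klf4: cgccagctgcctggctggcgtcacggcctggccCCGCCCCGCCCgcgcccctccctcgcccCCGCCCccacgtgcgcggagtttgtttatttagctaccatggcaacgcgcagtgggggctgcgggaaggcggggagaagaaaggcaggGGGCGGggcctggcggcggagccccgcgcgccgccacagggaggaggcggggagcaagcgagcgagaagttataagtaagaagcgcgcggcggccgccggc
Klf11: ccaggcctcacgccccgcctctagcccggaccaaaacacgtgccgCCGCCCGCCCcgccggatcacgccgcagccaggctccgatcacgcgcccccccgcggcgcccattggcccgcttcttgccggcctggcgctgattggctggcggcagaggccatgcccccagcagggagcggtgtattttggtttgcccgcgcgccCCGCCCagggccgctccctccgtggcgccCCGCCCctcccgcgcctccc

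The Klf2 window (chr8:72318812-72319061, plus strand) held 2 CCGCCC matches, 1 CACCC match that begins 19 bases before the start, and 1 MEF2 match, CTAAATTTAG, that begins 118 bases before it. MEF2 factors act downstream of the kinase ERK5 and are known activators of Klf2, and 2.92% of 32851 RefSeq windows of the same length held a MEF2 match. The Klf4 window (chr4:55532476-55532725, minus strand) and the Klf11 window (chr12:24651121-24651370, plus strand) each held 4 CCGCCC matches and 0 CACCC matches, and in each the first 2 CCGCCC matches overlap. CCGCCC was found in 32.7% and CACCC in 52.0% of all windows. Of the other members, Klf3 held 6 CCGCCC and 5 CACCC matches and Klf7 held 1 and 3. Klf13 held 3 CCGCCC and 1 CACCC matches, Klf6 held 1 and 0, and Klf12 held 0 and 1. The forkhead sequence GTAAACA, present in 3.17% of all windows, was in none of the 8 windows, which says only that these letters are not in them. GC content was 71.2% for Klf2, 74.0% for Klf4 and 76.8% for Klf11, beside a median of 52.4% over all windows.

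The activator subgroup is described first. Klf2 (ENSMUSG00000055148, mm10 chromosome 8, 72319033 to 72321656, plus strand) was at 170, 177, 183 and 190 CPM in control replicates 1 to 4 and at 168, 152, 141 and 135 CPM in edited replicates 1 to 4. The highest edited library thus lay just below the lowest control library, and on library totals without TMM factors the groups overlapped, at 162 to 180 and 142 to 175 CPM. The log2 fold change was -0.28 with a standard error (SE) of 0.076 (adjusted p = 0.012). It was -0.06 with upper-quartile factors (adjusted p = 0.47) and -0.12 on library totals (adjusted p = 0.17), in a range of 4.8e-06 to 0.47 over 17 alternatives.

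Klf4 (ENSMUSG00000003032, chromosome 4, 55527143 to 55532466, minus strand) had 61, 61, 70 and 86 counts in control libraries and 7, 6, 8 and 6 in edited libraries. This corresponds to 1.55 to 2.35 CPM and 0.144 to 0.200 CPM, with no overlap. KLF4 is known as a brake on proliferation in naive CD8 T cells and as a driver of monocyte differentiation. The log2 fold change was -3.47 with an SE of 0.23, or 11.0-fold lower. Because Klf4 reached the filter only in control libraries, this size is a description and no p is read from it. In the same libraries all 10 myeloid markers were lower, their summed level was 125 to 130 CPM in control libraries and 7.72 to 8.62 CPM in edited libraries, and none of the 10 was at 0 counts in either group. Lyz2, Csf1r, Adgre1, Cd14 and Spi1 reached the filter in all 4 control libraries but in at most 1 edited library. They thus had to be lower to be tested, and the count of 10 is a description only. The size of the fall differed widely between the 10 markers. Lyz2, the lysozyme gene, made up most of the control sum, at 83.1 and 0.148 CPM (554-fold lower), and Csf1r, the receptor for a macrophage growth factor, was at 8.73 and 0.0373 CPM (219-fold lower). Cd68 and Fcgr3 were only 1.63-fold and 1.86-fold lower, and Itgam was at 2.12 and 1.08 CPM. Their part in the Klf4 difference was not tested. In bulk RNA such as this, fewer cells of a type and less RNA per cell cannot be told apart. Of the 5 endothelial markers, Kdr had 116 and 3 counts, Vwf 280 and 15, Tek 39 and 1, and Cdh5 5 and 1 counts in control libraries and edited libraries. Pecam1, which leukocytes also express, was at 128 and 134 CPM and was called higher. Their part was not tested either.

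Klf6 (ENSMUSG00000000078, chromosome 13, 5861489 to 5870393, plus strand), a broadly expressed activator, was at 178, 172, 169 and 166 CPM in control libraries. In edited libraries it was at 93.6, 95.8, 93.4 and 96.2 CPM, so every edited library lay far below every control library. The log2 fold change was -0.86 with an SE of 0.025 (adjusted p = 8.0e-30), and over the 17 alternatives it ran from -0.89 to -0.64. Myeloid cells are also known to express Klf6, and the part of the lower myeloid markers in this difference was not tested.

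Klf7 (ENSMUSG00000025959, chromosome 1, 64029447 to 64122282, minus strand), best known from developing neurons, went the other way. It was at 17.3, 17.8, 15.8 and 18.2 CPM in control libraries and at 24.1, 27.8, 24.9 and 26.9 CPM in edited libraries. The groups did not overlap, and the log2 fold change was 0.59 with an SE of 0.048 (adjusted p = 6.6e-14), a 1.5-fold rise. The antisense gene Gm26649 shares 3196 exon bases with Klf7 and had 0 counts in both groups.

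Of the CtBP-recruiting repressors, Klf3 had the smallest difference of the 8 members tested. Klf3 (ENSMUSG00000029178, chromosome 5, 64803388 to 64832901, plus strand) was at 114 ± 0.288 CPM in control libraries and 111 ± 0.580 CPM in edited libraries (SD, n = 4 each). These groups did not overlap, yet the log2 fold change of -0.04 (SE 0.023) did not pass the test (adjusted p = 0.10), and its 95% interval ran from -0.09 to 0.01. The direction depended on scaling, since Klf3 was higher with upper-quartile factors (log2 fold change 0.17, adjusted p = 7.8e-09), on library totals (0.12, adjusted p = 2.0e-05) and with a filter of at least 5 CPM (0.05, adjusted p = 0.028). Upper-quartile factors moved the median of all genes by 0.215 and library totals by 0.160 on the log2 scale. The antisense gene Gm20033 shares 404 exon bases with Klf3, and it had 343 counts in control libraries and 802 in edited libraries, beside 17034 and 18069 for Klf3.

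Klf12 (ENSMUSG00000072294, chromosome 14, 99874486 to 100149764, minus strand), the other CtBP-recruiting member, had very few counts. It had 1, 0, 0 and 0 counts in control libraries and 4, 3, 6 and 1 in edited libraries. The summed counts, 1 and 14, gave a ratio of 14.3 on library totals, with a 95% exact binomial (Clopper-Pearson) interval of 2.18 to 606 that covers counting error only. Edited replicate 4 and control replicate 1 had the same count, and Klf12 did not reach the filter in either group.

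All 3 SIN3A-recruiting members rose, where 44.5% of all genes tested were higher. Of the relatives in this subgroup outside the member list, Klf9 rose and Klf16 fell. Klf10 (ENSMUSG00000037465, chromosome 15, 38294413 to 38300707, minus strand), which encodes a TGF-beta inducible repressor, was at 12.1, 11.4, 12.0 and 11.6 CPM in control libraries. In edited libraries it was at 55.8, 55.0, 55.8 and 54.5 CPM, so the groups lay far apart and each was narrow. The log2 fold change was 2.23 with an SE of 0.038 (adjusted p = 4.7e-38), or 4.69-fold.

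Klf11 (ENSMUSG00000020653, chromosome 12, 24651371 to 24662774, plus strand), the closest relative of Klf10, had the largest fold rise of the members tested. It was at 3.19, 2.88, 2.71 and 2.95 CPM in control libraries and at 23.6, 24.1, 25.2 and 26.1 CPM in edited libraries. The log2 fold change was 3.07 with an SE of 0.063 (adjusted p = 3.9e-35), an 8.41-fold rise, and over the alternatives it ran from 3.02 to 3.29. Of all genes tested, 93.9% had a smaller absolute log2 fold change than Klf11 and 88.7% a smaller one than Klf10.

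Klf13 (ENSMUSG00000052040, chromosome 7, 63886351 to 63938915, minus strand), known in T cells for binding the promoter of the chemokine gene Ccl5, was at 356, 360, 349 and 367 CPM in control libraries and at 438, 442, 443 and 427 CPM in edited libraries. All 4 edited libraries were higher, by a log2 fold change of 0.29 with an SE of 0.022 (adjusted p = 1.7e-15), and 23.9% of all genes tested had a smaller change. The size depended on scaling, with 0.51 under upper-quartile factors.

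**Figure D2:**
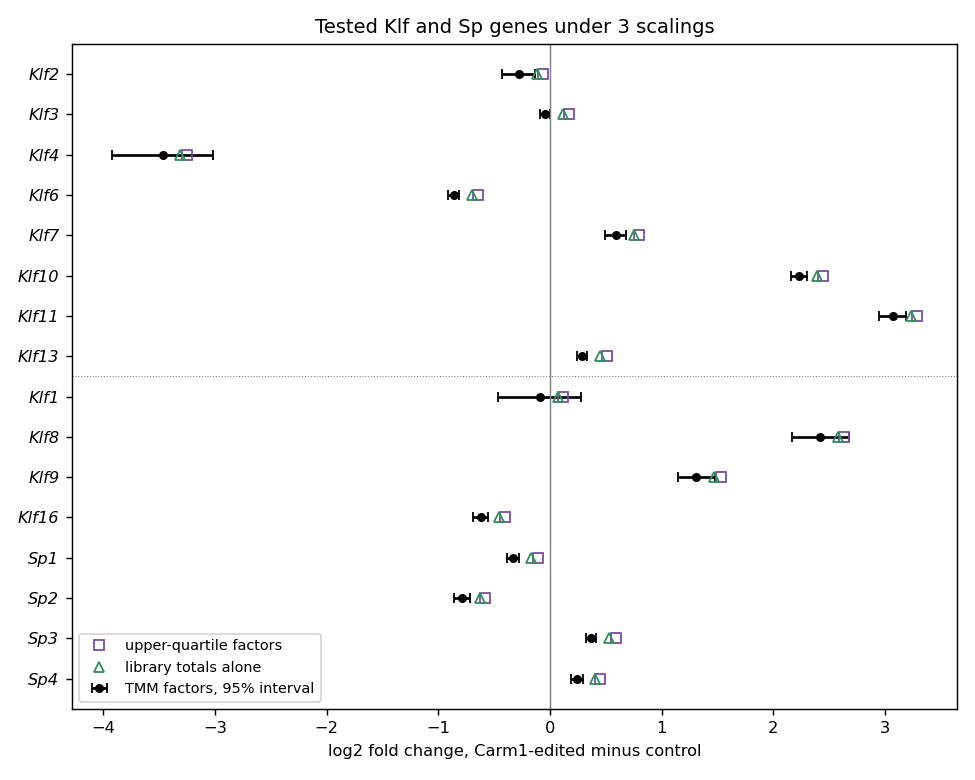
Log2 fold change (horizontal axis, Carm1-edited minus control) of the 8 tested members, above the dotted line, and of the 8 other tested Klf and Sp genes, with TMM factors (black, bars of 95% intervals), upper-quartile factors (squares) and library totals (triangles). Klf3 and Klf1 change sign between scalings, Klf2 comes near 0, and the other genes keep their direction under all 3.

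Levels of different genes were compared per length, as FPKM (CPM per kilobase of exon, from the gene lengths in the files). In control libraries the order from high to low was Klf2 at 97.6 ± 4.61, Klf13 at 47.5 ± 0.995, Klf6 at 40.7 ± 1.20, Klf3 at 10.1 ± 0.0257, Klf10 at 3.86 ± 0.108, Klf7 at 2.12 ± 0.126, Klf11 at 0.694 ± 0.0470, Klf4 at 0.611 ± 0.117 and Klf12 at 0.00341 FPKM. Each neighbour in this order was separate in all 4 libraries except Klf11 and Klf4, whose ranges overlapped. In edited libraries Klf10, at 18.1 ± 0.216 FPKM, stood above Klf3, at 9.84 ± 0.0516 FPKM, and Klf11, at 5.85 ± 0.271 FPKM, above Klf7, at 3.19 ± 0.212 FPKM. There only Klf4 (0.0543 ± 0.00819 FPKM) and Klf12 (0.0462 ± 0.0280 FPKM) overlapped.

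The summed FPKM of the 9 genes was 199 to 209 in control libraries and 190 to 208 in edited libraries, so the sums overlapped while the make-up differed. Klf2 held 48.0% ± 1.38 of the sum in control libraries and 40.6% ± 2.29 in edited libraries. The share of Klf6 was 20% ± 0.970 and 11.3% ± 0.547, and that of Klf13 was 23.4% ± 0.408 and 29.3% ± 1.01. Klf10 and Klf11, both TGF-beta inducible repressors, went from 1.90% to 9.16% and from 0.342% to 2.96% of the sum.

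**Figure D3:**
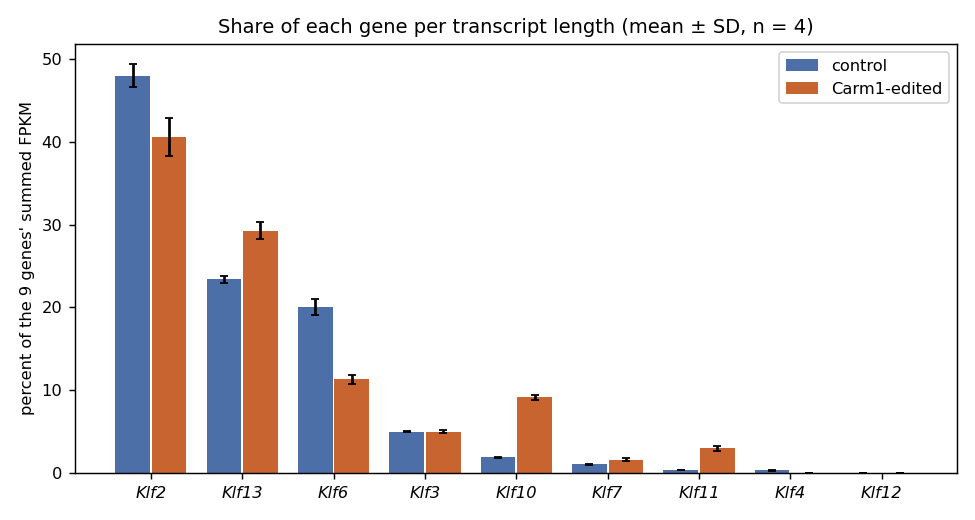
Share of each gene in the summed FPKM of the 9 genes (vertical axis, percent, mean ± SD over 4 libraries) in control (blue) and Carm1-edited (orange) libraries, in the order of the control levels. The bars of Klf2 and Klf6 are shorter and those of Klf13, Klf10 and Klf11 taller after Carm1 editing.

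Klf2 also varied within the groups more than most genes. The SD of its log2 CPM around the group means was 0.108, larger than that of 99.1% of the 7189 genes with a mean of at least 20 CPM. Klf7 followed at 0.092 (97.8%), whereas Klf13, Klf10 and Klf6 were at 0.028 to 0.034 and Klf3 at 0.006. Klf2 deviated from its control mean by -0.08 in control replicate 1 and by 0.08 in control replicate 4. In the edited group the deviations were 0.18 in replicate 1, 0.03 in replicate 2, -0.08 in replicate 3 and -0.13 in replicate 4. The 5 genes whose deviations followed those of Klf2 most closely were Tmem259, Hnrnpab, Dusp2, Mapkapk2 and Gps2, with Pearson r of 0.98 to 0.99 over the 8 libraries, the highest values out of 7188 other genes. Dusp2 encodes a MAP kinase phosphatase that is induced early after activation, Mapkapk2 a kinase downstream of p38, and Hnrnpab an RNA-binding protein.

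These followers differed widely from each other between the groups. Hnrnpab was at 911 and 231 CPM in control libraries and edited libraries (log2 fold change -1.98), Mapkapk2 at 205 and 103 CPM (-0.99), Dusp2 at 35.7 and 57.3 CPM (0.68), Tmem259 at 126 and 135 CPM (0.10), and Gps2 at 51.9 and 51.6 CPM (-0.01). Dusp2 had the largest deviations of the 5, at 0.17 in edited replicate 1 and -0.13 in replicate 4. The GC content of the longest annotated transcript was 61.6% for Klf2, 61.7% for Tmem259, 59.2% for Dusp2, 57.6% for Mapkapk2, 56.6% for Gps2 and 49.9% for Hnrnpab, beside a median of 49.4% over genes of at least 20 CPM. Across 7184 of these genes in one library, which are not independent replicates, the correlation of deviation with GC content was -0.40 in control replicate 1 and 0.18 in control replicate 4. It was 0.27 in edited replicate 1 and -0.29 in edited replicate 4. In these 4 libraries it had the sign of the Klf2 deviation, in control replicates 2 and 3 and edited replicates 2 and 3 it did not, and its part in the spread of Klf2 was not tested.

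**Figure D4:**
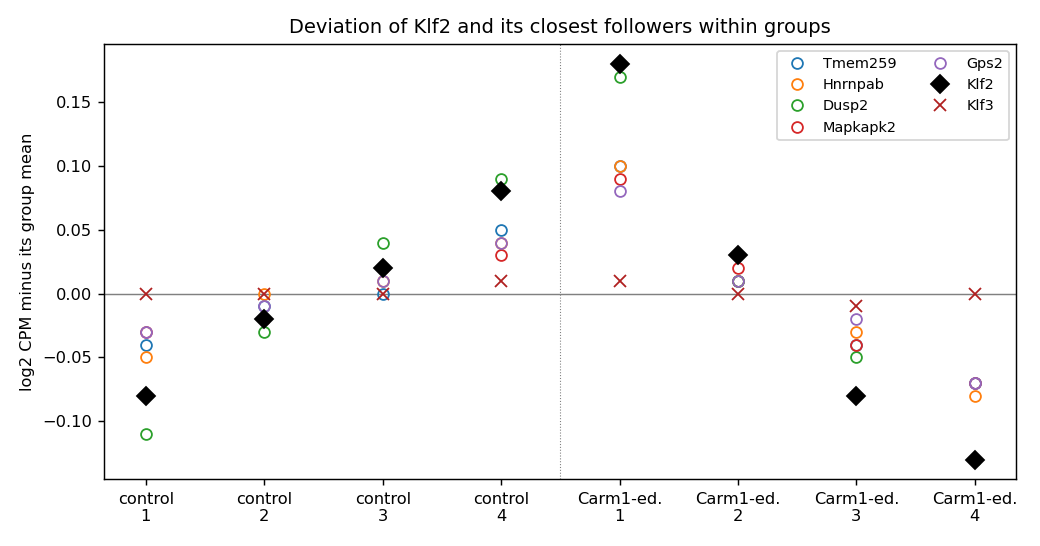
Deviation of log2 CPM from the group mean (vertical axis) in each of the 8 libraries for Klf2 (black diamonds), Klf3 (red crosses) and the 5 genes that follow Klf2 most closely (open circles). Klf2 ranges from -0.13 to 0.18, while Klf3 stays between -0.01 and 0.01.

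The rest of the family was measured to place these members. Of 17 other Klf and Sp genes 8 could be tested, and Klf15, Klf17, Sp5 and Sp7 had 0 counts in all libraries. Of the 8, 4 were higher, 3 were lower and 1 did not pass, beside 44.5% higher and 43.2% lower among all genes tested. Klf8, the CtBP-recruiting relative of Klf3, was at 0.849 ± 0.234 and 4.54 ± 0.404 CPM (log2 fold change 2.42, SE 0.13, adjusted p = 4.4e-20). Klf9, a SIN3A-recruiting relative of Klf13, was at 3.31 ± 0.600 and 8.21 ± 0.0307 CPM (1.31, SE 0.084, adjusted p = 1.4e-17). Klf16 of the same subgroup fell, from 55.9 ± 2.42 to 36.4 ± 1.20 CPM (-0.62, SE 0.033, adjusted p = 2.0e-20), so the subgroup did not move as one. Klf1, the erythroid member, was at 0.855 and 0.801 CPM and did not pass. Among the Sp factors, which bind GC boxes, Sp1 and Sp2 fell 1.26-fold and 1.73-fold and Sp3 and Sp4 rose 1.30-fold and 1.18-fold.

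Of 11 genes known to act on Klf2 or its protein, 6 were higher and 5 lower, beside 44.5% higher and 43.2% lower among all genes tested. The median log2 fold change was 0.33, beside 0.02 for all genes tested. With upper-quartile factors 7 were higher and 3 lower. Foxo1, known to activate Klf2 in naive lymphocytes, rose 1.76-fold, from 107 ± 2.37 to 189 ± 2.13 CPM, and Foxo3 and Foxo4 rose 1.41-fold and 1.29-fold. Mef2d and Mef2a, whose consensus is present in the Klf2 promoter window, rose 1.55-fold and 1.52-fold. Their relative Mef2c, which is abundant in myeloid and B cells, fell from 1.74 ± 0.111 to 0.0668 ± 0.0687 CPM and passed the filter only through the control libraries. Mef2c thus had to be lower to be tested, and the counts and the median of this list are descriptions only. Map2k5, the kinase that activates ERK5, rose 1.26-fold, and Mapk7, which encodes ERK5, fell 1.16-fold, a call absent with upper-quartile scaling (adjusted p = 0.92) and on library totals (adjusted p = 0.15). The ubiquitin ligase genes Fbxw7 and Smurf1 fell 1.44-fold and 1.26-fold. Wwp1, a ligase gene related to Smurf1, fell 1.08-fold but rose with upper-quartile factors (log2 fold change 0.10, adjusted p = 0.01).

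Of the 7 genes reported here that KLF2 is known to govern in T cells, 5 were higher and 2 lower. Among all genes tested 44.5% were higher and 43.2% lower. The list holds Cxcr3 and Myc, which KLF2 is known to hold down, beside targets such as S1pr1, so no shared direction is looked for. S1pr1, the receptor for exit from lymph nodes and a direct KLF2 target, rose from 162 ± 1.92 to 320 ± 3.51 CPM. Itgb7 and S1pr4 rose 1.64-fold and 1.32-fold, and Ccr7 fell 1.28-fold. Cxcr3, a chemokine receptor that rises in T cells without KLF2, went from 29.5 ± 1.00 to 227 ± 5.55 CPM, a log2 fold change of 2.95 (SE 0.028, adjusted p = 1.6e-46). Myc, which KLF2 and KLF4 are known to restrain, fell from 358 ± 9.60 to 124 ± 1.17 CPM.

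Of 7 genes of the TGF-beta pathway, which induces Klf10 and Klf11, 3 were higher and 4 lower. Among all genes tested 44.5% were higher and 43.2% lower, so these counts are near the background. With upper-quartile factors and on library totals 4 of the 7 were higher and 3 lower. The receptor genes Tgfbr1 and Tgfbr2 fell 1.33-fold and 1.26-fold. Of the signal transducers, Smad2 fell 1.70-fold and Smad3 rose 1.58-fold, while Smad4 rose 1.06-fold, a call that DESeq2 did not make (adjusted p = 0.083). Smad7, a feedback inhibitor that TGF-beta itself induces, rose from 38.2 ± 1.43 to 60.7 ± 1.93 CPM. Tgfb1, at 159 ± 3.86 and 149 ± 4.47 CPM, fell 1.07-fold with TMM factors but was higher with upper-quartile factors (log2 fold change 0.12).

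Of 10 genes for partner proteins of the family, 8 were lower, 1 was higher and 1 did not pass, where 43.2% of all genes tested were lower and 44.5% higher. The median log2 fold change was -0.40 beside 0.02 for all genes tested. With upper-quartile factors 6 were lower and 2 higher. Ctbp1, the corepressor of KLF3, KLF8 and KLF12, fell from 331 ± 8.21 to 184 ± 8.53 CPM, and Sin3a, the corepressor of KLF10, KLF11 and KLF13, fell from 119 ± 3.27 to 83.7 ± 1.82 CPM. The histone deacetylase genes Hdac2 and Hdac1, which act with SIN3A, fell 2.18-fold and 1.55-fold. Ctbp2 was low in both groups, at 0.715 and 0.0794 CPM, and passed the filter only through the control libraries. It thus had to be lower to be tested, and the counts and the median of this list are descriptions only. The histone acetyltransferase gene Ep300 did not pass, at 118 ± 2.76 and 121 ± 3.94 CPM, but was called higher with upper-quartile factors (log2 fold change 0.25). Its relative Crebbp fell 1.13-fold. Sap30, a subunit gene of the SIN3 complex, fell 1.09-fold with overlapping groups, and Crebbp and Sap30 changed sign with upper-quartile factors without passing the test. Kat2b, another acetyltransferase gene, rose 1.09-fold.

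**Figure D5:**
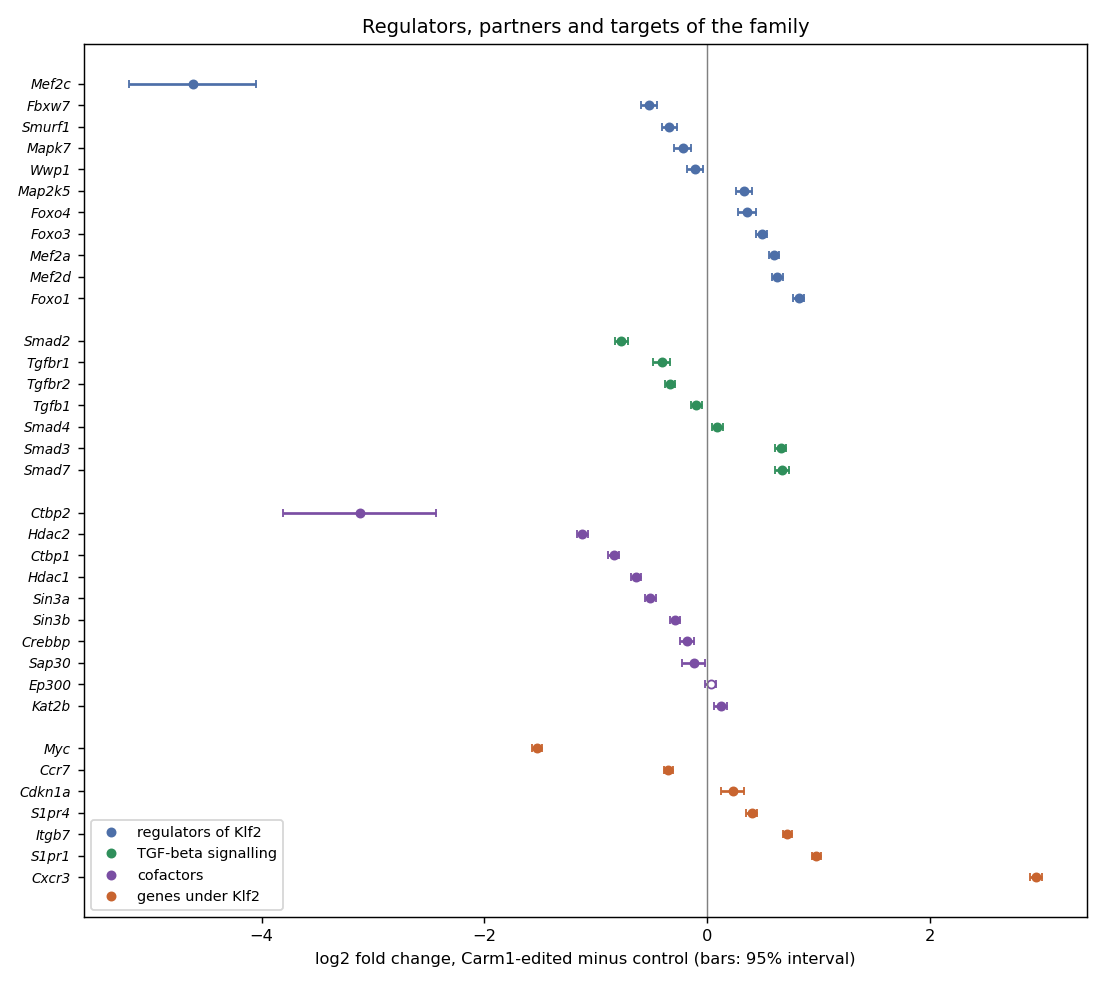
Log2 fold change (horizontal axis, Carm1-edited minus control, bars of 95% intervals) of genes that act on Klf2, of TGF-beta signalling, of partner proteins and of genes under KLF2, with an open circle for Ep300, which did not pass. Cxcr3 lies at 2.95 and Myc at -1.53 within the list of genes under KLF2, and 8 of the 10 partner genes are lower. Ctbp2 and Mef2c passed the filter only through the control libraries, so the count of partner genes is a description only.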

How the data were processed

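Each library has 1 deposited file of whole-number counts by Ensembl gene, with exon positions and gene length. The authors quantified gene counts with RSEM, per the labels' protocols, and mm10 is the build in the submitters' processing notes. RSEM estimates need not be whole, and where the rounding took place is unknown. The aligner, annotation release and strand setting were each not given in the sources used here. Because the library kit does not mark strand, sense and antisense reads cannot be told apart. Of 49315 identifiers 48970 had a symbol in GENCODE M21. Chi-square per degree of freedom was 1.45 to 13.5 in the 12 within-group pairs of libraries, so none was counted as a copy.

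Counts were filtered with filterByExpr, TMM-scaled (0.938 to 0.953 for control, 1.05 to 1.07 for edited libraries) and tested with robust quasi-likelihood F tests (edgeR 4.0.16, R 4.3.3, two-sided, Benjamini-Hochberg adjustment over 14970 genes, threshold 0.05). The SE is the log2 fold change divided by the square root of F. Deviations are of log2 CPM with a prior count of 2. The edgeR step was tested on simulated data. Promoter sequences are from RefSeq (GRCm38.p6). Alternatives were other scalings, filters and tools (DESeq2 1.42.0, limma 3.58.1 with voom), a replicate block, mitochondrially encoded genes left out, and each library left out. Named genes are Carm1, the members, the rest of the family, 4 lists of related genes, cell type markers, overlapping genes and the 5 closest followers of Klf2. The list of genes under KLF2 held 2 further genes that are not reported here and not counted. The members and lists were chosen with earlier results of these data known.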

Additional observations from a re-analysis of the deposited data

Results flagged for a closer look

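Of 18 sets of 4 libraries (9 genes in 2 groups), 1 had a library far from the others: Klf12 was at 0.0253 CPM in control replicate 1, which is 1 count, and had 0 counts in the other control libraries. With counts of 1, 0, 0 and 0, a single count always stands apart in this way.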

How the results depend on the processing

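Over 17 alternatives the directions and calls of Klf6, Klf7, Klf10, Klf11 and Klf13 did not change. Klf4 kept its direction in 16 of them, since a filter of at least 5 CPM drops it. It passed the filter on low counts only through the control libraries, so its direction and calls here are descriptions only. Klf2 lost its call with upper-quartile factors (log2 fold change -0.06), library totals alone (-0.12) and the replicate block (-0.28, adjusted p = 0.069). Klf3, which did not pass with TMM factors, was called lower with DESeq2 (-0.07), RLE factors (-0.06) and no filter (-0.07), and higher with upper-quartile factors (0.17), library totals alone (0.12) and a filter of at least 5 CPM (0.05). Klf12 was tested by 2 alternatives, and it was called higher by both (adjusted p = 0.0056 in edgeR with no filter and 0.022 in DESeq2). The 4 members called higher became 5 and the 3 called lower became 2 or 4 in these settings.

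With upper-quartile factors and library totals alone the sign changed for Klf1 (0.12 and 0.07), Wwp1 (0.10 and 0.05), Tgfb1 (0.12 and 0.06) and Sap30 (0.09 and 0.04), and with upper-quartile factors also for Crebbp (0.04). The share of called genes that were higher was 50.8% under TMM and 61.0% under upper-quartile scaling. With 1 library left out, 6646 to 6712 genes were higher and 6474 to 6568 lower, no member changed its call (Klf2 ran from -0.34 to -0.24), and Klf1 ran from -0.22 to 0.02. The upper-quartile and library-total sign changes came with a shift of the median of all genes by 0.215 and 0.160, and the cause of the other changes was not tested. Deviations of same-numbered libraries correlated at -0.085 to -0.051 across genes, and no library correlated best with its own number. These values gave no sign that the replicate numbers pair the samples, but whether same-numbered libraries shared a batch was not tested. The replicate block gave 6611 genes higher and 6420 lower. Depth limits Klf12 and, in the Carm1-edited libraries, Klf4.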
